A study of Homo sapiens with 8 samples.

Results

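Gasdermins form pores in the plasma membrane, and 8 genes of this pathway were followed in SET-2 cells given guide RNAs against ZRSR2 or non-targeting guides. The 8 are the gasdermins DFNA5, GSDMB and GSDMD, the caspases CASP1, CASP4 and CASP8, the inflammasome sensor NLRP3 and its adaptor PYCARD, out of 25435 gene symbols in the table. They were selected by symbol, and the set was built around DFNA5 because its measured level was lower with ZRSR2 guides. Values in that comparison are therefore a description and are given with no test.

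SET-2 is an established human cell line of megakaryoblasts, derived from essential thrombocythemia that had turned into leukemia, with an activating JAK2 mutation. ZRSR2 is a splicing factor of minor introns. Of the 8 RNA-seq libraries, 4 came from cells with ZRSR2 guides (genotype label ZRSR2 KO) and 4 from cells with non-targeting guides (ZRSR2 wildtype). Each genotype had guides 1 and 2, each used once in experiment 1 and once in experiment 2. Replicate numbers 1 and 2 stand for experiment 1 and numbers 3 and 4 for experiment 2, with guide 1 as the odd and guide 2 as the even number of either genotype. RNA was taken 20 days after transduction for biological replicate 1 and 25 days for biological replicate 2, read here as the experiment numbers, which is an assumption. All groups share the cell line and a lentiviral guide vector with GFP, and whether cells were cloned or sorted is not given in the sources used here. The labels do not say that libraries of 1 experiment came from separate cultures, so p-values measure the spread between these libraries. The 2 libraries of a genotype in 1 experiment carry different guides. In fits that do not separate guides, the spread therefore also holds any difference between them.

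In pyroptosis, a protease cuts a gasdermin between its amino-terminal pore-forming part and its inhibitory part, and the freed part makes pores through which cytokines leave and the cell lyses. CASP1, activated on an inflammasome of a sensor such as NLRP3 and the adaptor ASC (gene PYCARD), and CASP4, which binds bacterial lipopolysaccharide in the cytosol, cut gasdermin D. Gasdermin E, the product of DFNA5 (current symbol GSDME), can be cut during apoptotic signalling, which turns it into lytic death. CASP8 starts death-receptor apoptosis and can also cut gasdermin D. NLRP3 and CASP1 are best known from monocytes and macrophages.

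The bases before the annotated gene starts are shown for 3 of the 8 genes, because these genes had the clearest differences between experiments among the 5 of 8 matched in the RefSeq table (GRCh38.p14; the window of CASP8, also matched, was not analysed here). Each window is 250 bases, written 5′ to 3′ on the gene's own strand and ending at the base before the start. Capitals mark CG dinucleotides, the sites of DNA methylation, which is known to silence DFNA5 in several tumours and was not measured here.

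DFNA5: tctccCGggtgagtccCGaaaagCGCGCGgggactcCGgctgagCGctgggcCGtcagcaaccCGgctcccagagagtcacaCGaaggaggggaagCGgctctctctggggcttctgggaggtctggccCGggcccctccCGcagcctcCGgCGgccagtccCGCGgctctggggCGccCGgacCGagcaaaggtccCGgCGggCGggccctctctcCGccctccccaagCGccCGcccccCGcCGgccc

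CASP4: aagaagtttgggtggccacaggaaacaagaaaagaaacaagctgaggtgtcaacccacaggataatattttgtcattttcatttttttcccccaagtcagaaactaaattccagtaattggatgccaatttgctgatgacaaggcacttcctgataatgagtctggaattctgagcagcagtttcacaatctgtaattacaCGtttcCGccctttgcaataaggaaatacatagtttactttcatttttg

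NLRP3: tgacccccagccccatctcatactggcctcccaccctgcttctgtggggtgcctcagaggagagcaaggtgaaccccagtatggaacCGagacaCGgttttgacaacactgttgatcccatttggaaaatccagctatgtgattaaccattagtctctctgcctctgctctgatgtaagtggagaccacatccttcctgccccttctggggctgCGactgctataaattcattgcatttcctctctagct

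The DFNA5 window (chr7:24757465-24757714, minus strand) held 28 CG dinucleotides, and 84.1% of the 35116 windows in the table held fewer. The CASP4 window (chr11:104968575-104968824, minus strand) held 2, with 14.7% of windows holding fewer. In the NLRP3 window (chr1:247415923-247416172, plus strand) there were 3, with 22.9% of windows holding fewer. The window of PYCARD, not shown, held 16. Of 6 motifs searched on both strands, only the GC box GGGCGG, which 42.6% of all windows hold, had matches in these 4 windows: 3 for DFNA5, 2 for PYCARD, 1 for CASP4 and 0 for NLRP3. The other 5 motifs had no match in any of the 4 windows. Among these was the ETS motif CCGGAAG, held by 8.52% of all windows. The AP-1 motif TGANTCA was held by 6.57% of all windows. The GATA motif AGATAA was held by 9.17%. For the STAT motif TTCNNNGAA the share was 6.57%. For the E-box CACGTG it was 6.34%. The letters of these motifs were searched separately, so matches of different motifs could overlap. These are matches of letters in 1 window per gene, and the start used in SET-2 cells was not measured.

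Library totals ran from 31106042 to 71521173 expected counts, and 14898 genes were tested. All 8 genes passed the filter on low counts, with 86 counts (NLRP3) to 7457 counts (CASP4) in a library. The targeted gene ZRSR2 was at 18.7 to 29.4 CPM (counts scaled by library size to the same total) with ZRSR2 guides and at 37.9 to 41.1 CPM with non-targeting guides, so its transcript was reduced and not absent. Megakaryocyte-lineage genes were present, with ITGA2B at 2085 CPM or more in every library, while the platelet chemokine genes PF4 and PPBP averaged 1.94 and 0.560 CPM in experiment 1. Among markers of other cells, CD14 lay between 0.451 and 0.996 CPM, CSF1R reached 0.270 CPM at most, and MS4A1 had no count. Of the same marker lists, LYZ was at 206 to 267 CPM, ITGAM at 148 to 230 CPM and CD79A at 10.3 to 51.1 CPM over the 8 libraries.

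**Figure D1:**
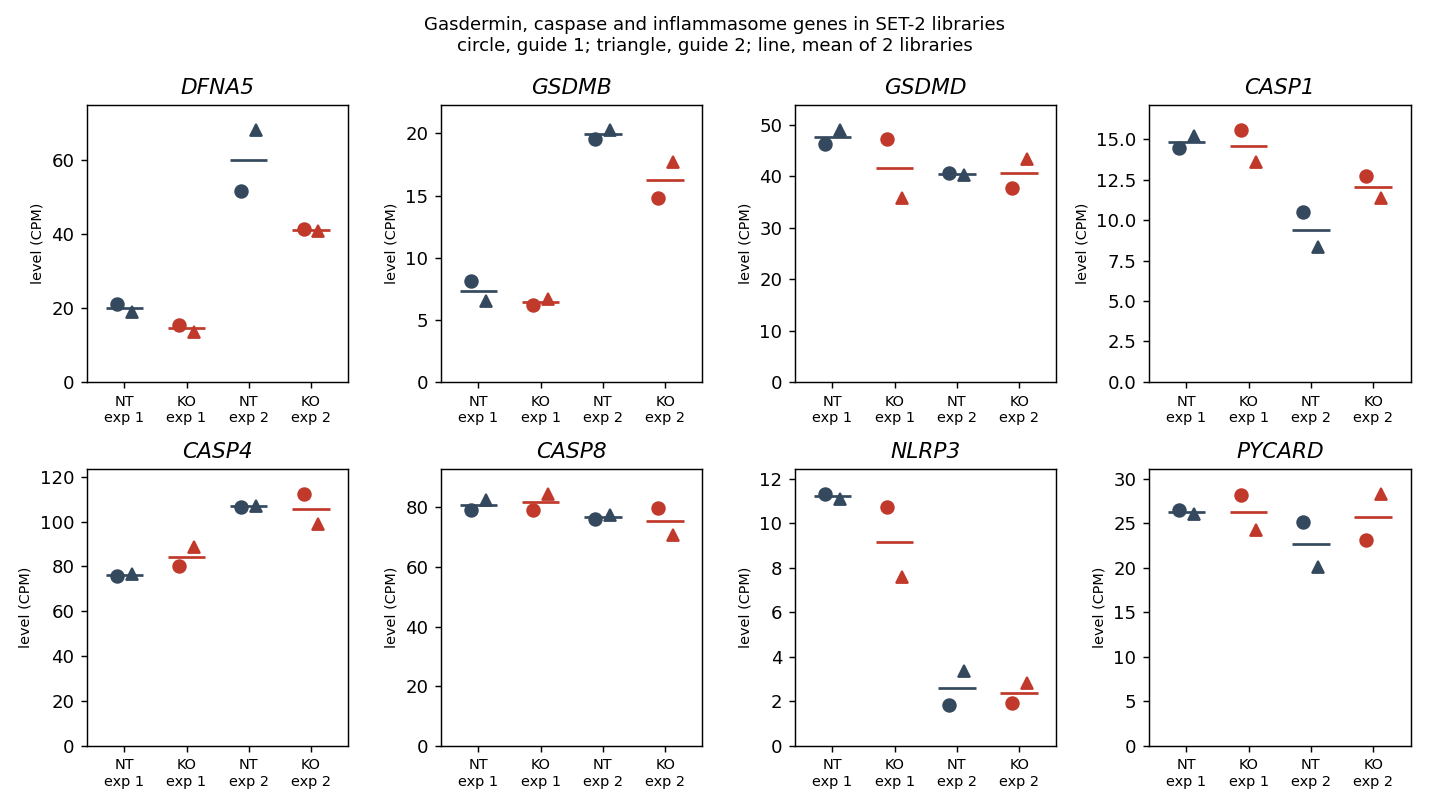
Level of each of the 8 genes (CPM, vertical axis from 0) in the 8 libraries, by genotype and experiment (horizontal axis; NT, non-targeting; KO, ZRSR2 guides). Circles are guide 1, triangles guide 2 and lines the mean of 2 libraries; DFNA5 ran from 13.6 to 68.0 CPM and its 4 pairs of libraries do not overlap.

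DFNA5 was the gene with the widest range among the gasdermins. In experiment 1 it was at 21.1 and 18.9 CPM in non-targeting replicates 1 and 2, and at 15.4 and 13.6 CPM in ZRSR2 KO replicates 1 and 2. In experiment 2 it was at 51.6 and 68.0 CPM in non-targeting replicates 3 and 4, and at 41.4 and 40.7 CPM in ZRSR2 KO replicates 3 and 4. Within both experiments each library with a ZRSR2 guide lay below each non-targeting library, and all experiment 2 libraries lay above all experiment 1 libraries. From low to high the order was ZRSR2 KO in experiment 1, non-targeting in experiment 1, ZRSR2 KO in experiment 2 and non-targeting in experiment 2, with no overlap between neighbours (n = 2 each).

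With ZRSR2 guides DFNA5 averaged 27.8 ± 15.3 CPM against 39.9 ± 24.0 CPM with non-targeting guides (SD, n = 4 each), or 69.6% of the control mean, where the SDs hold the difference between experiments. The ZRSR2 KO mean was 72.5% of its own control mean in experiment 1 and 68.6% in experiment 2. As log2 fold changes these were −0.47 and −0.54, and the value over all 8 libraries was −0.52. Guide 1 libraries averaged 71.2% and guide 2 libraries 68.0% of the non-targeting mean. Of the 14898 tested genes, 222, or 1.49%, had a log2 fold change as low as that of DFNA5 or lower, in the fit that ignores the experiment. Since DFNA5 was picked for this direction, that share is a description and no test. Leaving out 1 library moved the value between −0.78 and −0.12, the latter without non-targeting replicate 4, in fits that ignore the experiment. With the experiment as a block it was −0.51. Leaving out any 1 library in that fit gave −0.58 to −0.39, a check added after seeing the data.

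The other 7 genes had smaller differences with ZRSR2 guides. GSDMB, a gasdermin cut by lymphocyte granzyme A, was at 83.2% of the control mean over all libraries, 88.1% in experiment 1 and 81.4% in experiment 2. NLRP3 was at 83.7%, GSDMD at 93.2%, CASP8 at 99.7%, CASP4 at 104%, PYCARD at 106% and CASP1 at 110%. In 0 of the 8 genes did all ZRSR2 KO libraries lie below all non-targeting libraries, which 0.376% of tested genes did, and in 0 did they lie above, which 0.302% did. Neither can occur in a gene whose experiments do not overlap, because each genotype has libraries in both. That fixed the outcome for DFNA5, GSDMB, CASP1, CASP4 and NLRP3, as for 56% of tested genes. Within both experiments, 1 of the 8, DFNA5, had the ZRSR2 KO libraries below the controls, against 3.26% of tested genes. Since DFNA5 was picked for this direction, nothing follows from that count.

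**Figure D2:**
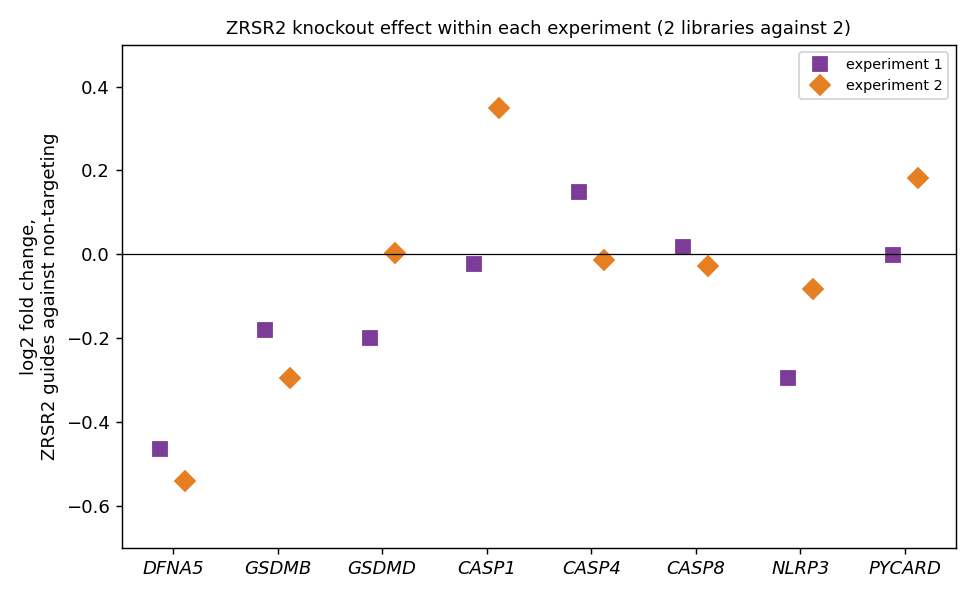
Log2 fold change of ZRSR2 guides against non-targeting guides (vertical axis) for the 8 genes, squares for experiment 1 and diamonds for experiment 2, each from 2 libraries against 2. DFNA5 is the lowest in both, at −0.47 and −0.54, and CASP1 the highest in experiment 2, at 0.35.

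Whether the effect of the ZRSR2 guides differed between experiments did not enter the choice of genes and was tested. In edgeR's quasi-likelihood test with Benjamini-Hochberg adjustment, 0 of the 8 genes were called and 0 had an unadjusted p under 0.05. Over all genes 0, or 0%, were called by edgeR, while 248 had an unadjusted p under 0.05 and DESeq2 called 0 as well. For DFNA5 the difference of the log2 effects, experiment 2 minus experiment 1, was −0.08 (SE 0.21, edgeR adjusted p 1.00). Across the 8 genes it ran from −0.16 (SE 0.15) for CASP4 to 0.37 (SE 0.22) for CASP1. CASP1 was at 98.5% of the control mean in experiment 1 and at 128% in experiment 2.

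The guides within a genotype were also compared, in fits that ignore the experiment unless a block is named. Such fits count the difference between experiments as spread, so their lack of calls says little. For DFNA5 the SE between the ZRSR2 guides was 0.86 without the block and 0.15 with it. ZRSR2 guide 2 against guide 1 called 0 of the 8 genes and 0% of all genes in edgeR, while the unadjusted p was under 0.05 for 27 genes (376 with the experiment as a block, 0 called) and DESeq2 called 0. Non-targeting guide 2 against guide 1 likewise called 0 of the 8 and 0%, while the unadjusted p was under 0.05 for 13 genes (482 with the block, 0 called) and DESeq2 called 0. ZRSR2 itself averaged 73.1% of the control mean with guide 1 and 52.7% with guide 2, while DFNA5 differed between these guides by −0.10 on the log2 scale (SE 0.15, with the experiment as a block). NLRP3 was at 10.7 and 7.61 CPM with ZRSR2 guides 1 and 2 in experiment 1, and at 1.94 and 2.84 CPM in experiment 2, so its order by guide was opposite in the experiments.

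Between experiments, 5 of the 8 genes changed: DFNA5, GSDMB and CASP4 rose in experiment 2, and NLRP3 and CASP1 fell. Over all tested genes 58.2% were called, 29.6% higher and 28.6% lower, so 5 of 8 is close to the background. Their experiments did not overlap in any library, which held for 56% of all tested genes. Since an experiment was collected once, its day and any batch cannot be told apart from it. In RNA from a whole culture, fewer cells that express a gene and less RNA per cell cannot be told apart either.

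Among the pore formers, DFNA5 rose from 17.3 ± 3.39 to 50.4 ± 12.7 CPM (SD, n = 4), 2.92-fold on the means, with a log2 change between experiments of 1.54 (SE 0.11, edgeR adjusted p 1.7e-06). Its absolute log2 fold change was larger than that of 93.9% of tested genes, and larger than its difference between genotypes. GSDMB was at 6.21, 6.70, 8.12 and 6.53 CPM in experiment 1, in ZRSR2 KO replicates 1 and 2 and non-targeting replicates 1 and 2. In experiment 2 it was at 14.8 and 17.7 CPM with ZRSR2 guides and at 19.6 and 20.3 CPM with non-targeting guides. Every experiment 2 library exceeded every experiment 1 library, with a log2 change between experiments of 1.39 (SE 0.11, edgeR adjusted p 4.43e-06).

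GSDMD, the gasdermin cut by the inflammatory caspases, did not share this change. Its levels were 35.8 to 49.0 CPM in experiment 1 and 37.7 to 43.5 CPM in experiment 2, with a log2 change between experiments of −0.13 (SE 0.10, edgeR adjusted p 0.266), and the experiments overlapped. The other family members were low: DFNB59, which encodes pejvakin, lay between 0.274 and 0.867 CPM and did not pass (edgeR adjusted p 0.618). GSDMA reached 8 counts and GSDMC 3 counts at most in a library, and neither was tested.

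The inflammatory caspases moved in opposite directions. CASP4 was at 80.0, 88.6, 75.7 and 76.5 CPM in experiment 1, in the same order of libraries. In experiment 2 it was at 112, 99.0, 106 and 107 CPM. All 4 values of experiment 2 exceeded all 4 of experiment 1, with a log2 change between experiments of 0.41 (SE 0.07, edgeR adjusted p 7.05e-04).

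CASP1, which also matures interleukin-1β and interleukin-18, was at 15.6, 13.6, 14.5 and 15.2 CPM in experiment 1. In experiment 2 it was at 12.8, 11.4, 10.5 and 8.35 CPM, each below every value of experiment 1. Its log2 fold change was −0.46 (SE 0.11, edgeR adjusted p 0.00409). CARD16, a near relative of the CARD part of CASP1, was tested separately and gave 0.03 (SE 0.10), and RSEM could have split reads between such relatives, so the CASP1 value is uncertain to that extent. CASP5, a relative of CASP4, had 6 counts at most in a library and was not tested.

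CASP8 was at 79.0 to 84.6 CPM in experiment 1 and at 70.9 to 79.7 CPM in experiment 2, which overlap. The log2 difference was −0.10 (SE 0.07, edgeR adjusted p 0.262).

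NLRP3 had the largest change of the 8. It was at 10.7, 7.61, 11.3 and 11.1 CPM in ZRSR2 KO replicates 1 and 2 and non-targeting replicates 1 and 2 of experiment 1. In experiment 2 it was at 1.94, 2.84, 1.81 and 3.38 CPM in the matching order. The means of 10.2 ± 1.74 and 2.49 ± 0.748 CPM (SD, n = 4) differ 4.09-fold, with a log2 change between experiments of −2.04 (SE 0.21, edgeR adjusted p 1.83e-05). PYCARD was between 20.1 and 28.3 CPM over all libraries, with a log2 change between experiments of −0.12 (SE 0.11, edgeR adjusted p 0.362). The annotation places PYCARD-AS1 on the opposite strand over 1566 bases of PYCARD, so reads of the pair cannot be separated where strand was not used.

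Compared per length, as CPM per kilobase of the longest protein-coding transcript in GENCODE 29, CASP4 was highest at a mean of 43.2 (range over libraries 35.1 to 52.1). CASP8 at 26.8 and PYCARD at 25.5 followed with overlapping ranges, and GSDMD at 17.1 lay below both in every library. DFNA5 at 13.1 ranged from 5.23 to 26.2 and so overlapped its neighbours GSDMD and GSDMB. GSDMB at 7.68 and CASP1 at 6.36 overlapped and changed places when the median transcript length was used. NLRP3 at 1.47 was lowest in both scalings.

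A list of 72 genes of pyroptosis and neighbouring death pathways, the 8 included, places these changes. Of the 72, 60 were tested, and 15 rose and 25 fell between experiments, or 66.7% against 58.2% of all tested genes. The 52 tested genes that are not among the 8 had a median log2 fold change of −0.13, against 0.00 over all tested genes. The counts by group below are to be read against the 29.6% of all tested genes that rose and the 28.6% that fell, and no group was tested as a group.

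**Figure D3:**
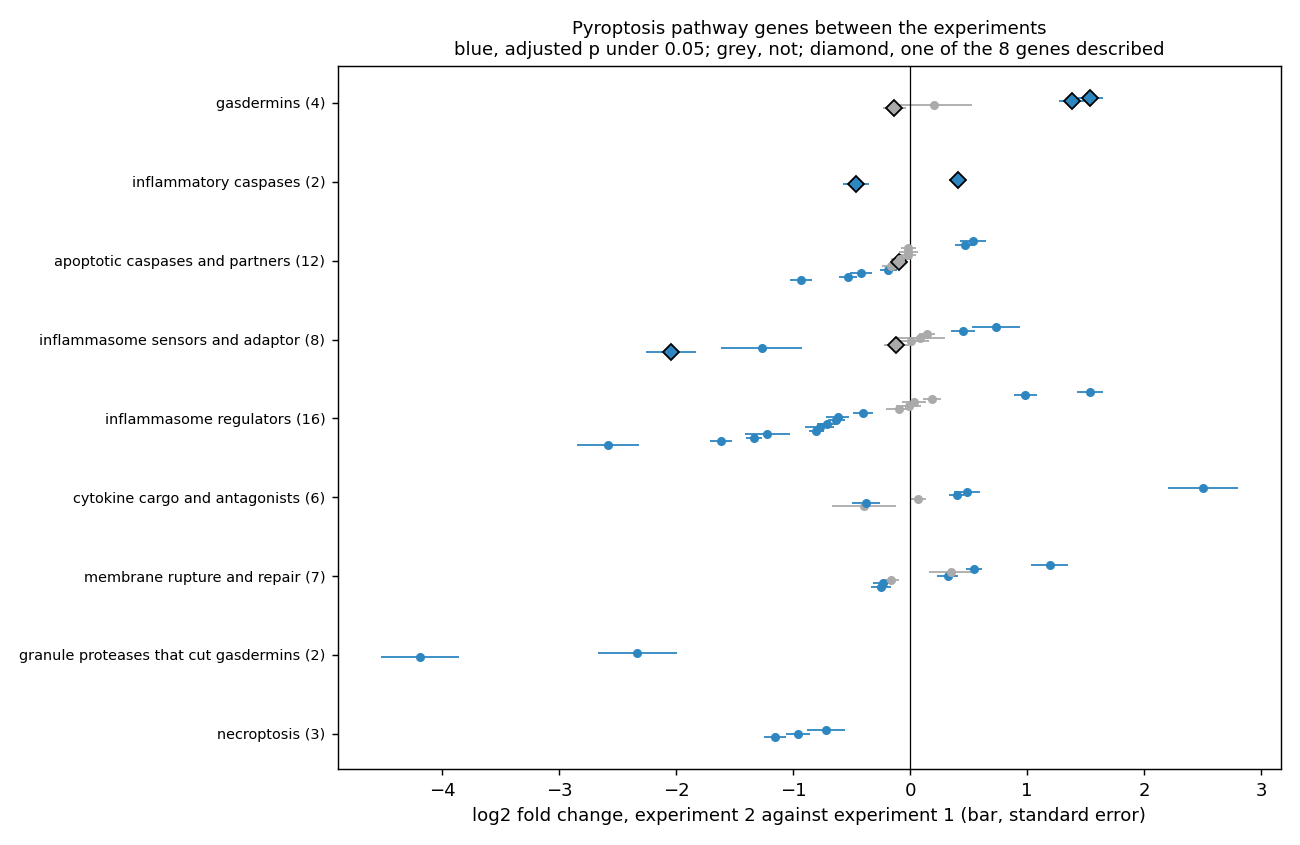
Log2 fold change of experiment 2 against experiment 1 (horizontal axis, bars are standard errors) for the 60 tested pathway genes in 9 groups (vertical axis, number tested in brackets). Blue points have an adjusted p under 0.05 and grey ones do not, and diamonds are the 8 genes. Of the 16 regulators 10 are blue and below 0, where 28.6% of all tested genes fell, and no group was tested as a group.

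Of the caspases and partners of apoptosis, 12 were tested, 2 rose, 4 fell and 6 did not pass, which is near the 58.2% called over all tested genes. CYCS, the cytochrome c that starts the apoptosome, fell by 0.93 on the log2 scale (SE 0.10), and APAF1, the apoptosome scaffold, rose by 0.54 (SE 0.11). CASP9, which the apoptosome activates, rose by 0.47 (SE 0.09), and CASP6 and the death-receptor adaptor FADD had log2 fold changes of −0.53 and −0.42.

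Of the sensors and the adaptor, 8 of 11 were tested, 2 rose, 2 fell and 4 did not pass, again near the 58.2% called over all tested genes. NLRP1, a sensor known from skin epithelium, rose by 0.45 (SE 0.10), and NLRC4, the sensor of bacterial flagellin with NAIP, by 0.73 (SE 0.20) at a mean of 1.60 CPM in experiment 2. AIM2, the sensor of cytosolic DNA, was at 0.01 (SE 0.16), and the second sensor that fell was NLRP12.

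Of the regulators of inflammasomes, 16 were tested, 2 rose, 10 fell and 4 did not pass, where 28.6% of all tested genes fell. Their median log2 fold change was −0.62, against 0.00 over all tested genes. The list was not split by whether a gene promotes or restrains inflammasomes, so these values give no direction of inflammasome activity. Those that fell also include guanylate-binding protein genes of a single family. TLR4, the receptor for extracellular lipopolysaccharide that primes NLRP3, fell by 2.58 (SE 0.26), from 4.09 to 0.710 CPM on the means. GBP5 and GBP1, interferon-inducible guanylate-binding proteins of defence against intracellular bacteria, fell by 1.62 (SE 0.10) and 1.33 (SE 0.07). P2RX7, the ATP-gated channel that triggers NLRP3, rose by 0.99 (SE 0.10). TXNIP, a thioredoxin-binding protein reported to bind NLRP3, rose by 1.54 (SE 0.11), from 343 ± 32.1 to 1007 ± 247 CPM (SD, n = 4).

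Of 6 cytokines and their antagonists, 3 rose and 1 fell, where 29.6% of all tested genes rose and 28.6% fell. IL1B, the precursor that CASP1 matures, rose by 0.40 (SE 0.06) to 266 ± 9.68 CPM, IL18 rose by 0.49 (SE 0.11), and the binding protein IL18BP fell by 0.38 (SE 0.12). IL1A rose by 2.50 (SE 0.30) on 7 to 133 counts per library. Of 7 genes of membrane rupture and repair, 3 rose and 2 fell, against the same shares. NINJ1, which ruptures the membrane after gasdermin pores, rose by 1.19 (SE 0.16), from 4.30 to 9.80 CPM on the means. The repair genes CHMP2A and VPS4B rose by 0.55 (SE 0.07) and 0.32 (SE 0.09), and CHMP4A and VPS4A fell by 0.25 and 0.24 (SE 0.08 each).

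The granule protease gene GZMB, whose product can cut gasdermin E, fell by 4.19 (SE 0.33), on 71 to 116 counts per library in experiment 1 and 3 to 9 in experiment 2. CTSG was the other of 2 tested granule protease genes, and both fell, where 28.6% of all tested genes fell. Against the same share, the 3 tested genes of necroptosis, another lytic death, fell: RIPK1 by 1.15 (SE 0.09), the pore former MLKL by 0.96 (SE 0.10) and RIPK3 by 0.72 (SE 0.16). Beside these changes, the summed level of 6 monocyte and macrophage markers was 367 to 397 CPM in experiment 1 and 415 to 498 CPM in experiment 2, with ITGAM higher and FCGR1A lower among 4 tested. LYZ and ITGAM made up nearly all of this sum. The 3 B cell markers summed to 10.3 to 11.5 and 32.5 to 51.2 CPM, of which CD79A alone was tested, with MS4A1 at 0. The 6 neutrophil markers summed to 0.254 to 0.393 and 0.789 to 1.37 CPM, and the 5 T and NK cell markers to 3.26 to 3.85 and 4.29 to 6.06 CPM, with 1 tested in each, which rose. The 3 fibroblast markers summed to 1.77 to 2.84 and 3.36 to 4.46 CPM, with 1 of 3 higher. The 9 megakaryocyte-lineage markers summed to 3098 to 3328 and 3257 to 3989 CPM, with 3 higher and 1 lower. The part of these markers in the results was not tested.

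The genes with a profile most like that of DFNA5 over the 8 libraries were sought among 11013 genes with a mean of at least 5 CPM. Likeness was the root mean square difference of log2 CPM after each gene was centred on its own mean, which had a median of 0.83 over these genes. The 5 nearest were BNIP3L at 0.13, TXNIP at 0.13, CACNG6 at 0.14, MIAT at 0.15 and EFEMP2 at 0.15. BNIP3L encodes a mitophagy receptor. TXNIP, the regulator named above, was at 332 and 313 CPM in ZRSR2 KO replicates 1 and 2 and at 388 and 340 CPM in non-targeting replicates 1 and 2. It was at 840 and 890 CPM in ZRSR2 KO replicates 3 and 4 and at 925 and 1373 CPM in non-targeting replicates 3 and 4. Like DFNA5 it was lowest in ZRSR2 KO replicate 2 of experiment 1 and highest in non-targeting replicate 4. Since these genes were picked for their likeness over the same 8 libraries, a shared order follows from the choice.

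**Figure D4:**
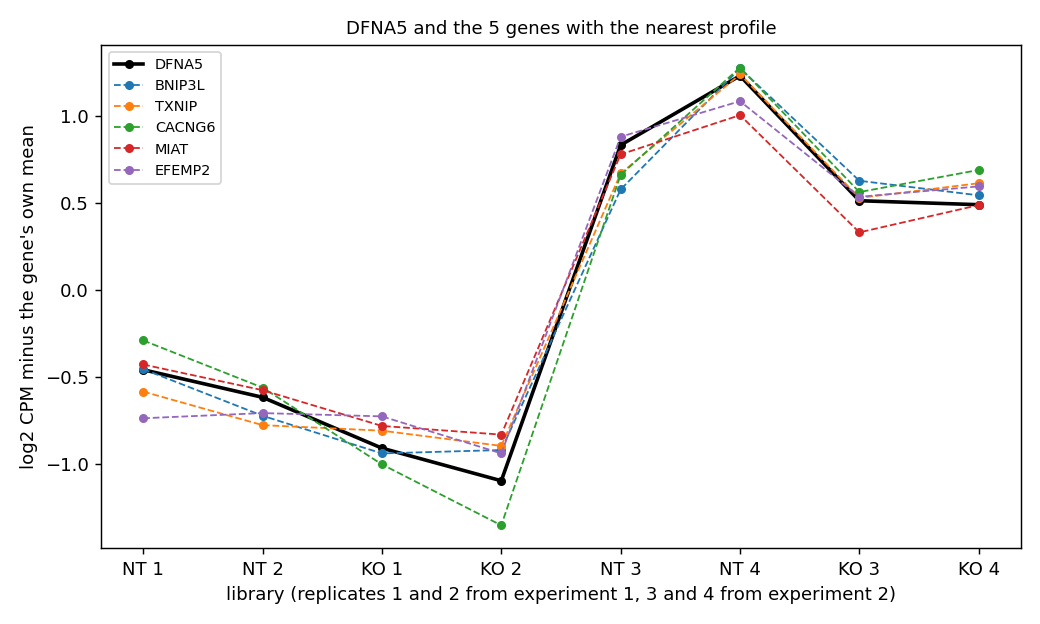
Log2 CPM minus each gene's own mean (vertical axis) in the 8 libraries (horizontal axis) for DFNA5, the solid line, and the 5 genes nearest to it, dashed. All 6 lines are lower in replicates 1 and 2 than in replicates 3 and 4 and highest in non-targeting replicate 4.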

How the data were processed

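Messenger RNA was sequenced in 8 SET-2 libraries, and the deposited table holds RSEM expected counts per gene symbol, by its own name. The submitters' processing notes name cutadapt 1.11, RSEM 1.2.30 and the build hg19; annotation and use of strand are not given in the sources used here. The values were whole already, so rounding changed none. Columns were matched to samples by the number in each title.

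Counts were filtered with filterByExpr on genotype, scaled with TMM and tested with edgeR 4.0.16 in R 4.3.3 by the quasi-likelihood test, with Benjamini-Hochberg adjustment over 14898 genes and a threshold of 0.05. Experiments and the difference of knockout effects came from a fit of 4 genotype-by-experiment cells, and guides from a fit of 4 guides. CPM uses TMM-scaled library sizes, so that 1 count was 0.0143 to 0.0324 CPM and a floor of 3 counts 0.0428 to 0.0971 CPM, which covers counting error only. Likeness used a prior count of 2. Alternatives were DESeq2 1.42.0, other scalings and filters, a block and leaving out each library. The fits were also run on simulated counts, with the outcome not reported here. Those counts lacked the wide difference between experiments, so they say little about the fits that ignore the experiment.

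Knockout and control libraries of 1 experiment deviated together from their genotype means (correlation over genes 0.678 to 0.846 in 8 pairs, −0.816 to −0.709 in 8 pairs across experiments), so the experiment pairs them. No 2 libraries agreed within sampling noise. The 8 genes and the lists were chosen with earlier results of these data known. Besides the 8, list genes were named where they passed between experiments at a mean of at least 1 CPM, up to 3 per direction and list, and the 5 genes nearest to DFNA5. CARD16, CASP5, AIM2, DFNB59, GSDMA, GSDMC, NLRP12, CTSG and the cell markers were named outside this rule, after their values were seen. Some list genes are counted and not reported here by name.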

Additional observations from a re-analysis of the deposited data

Results flagged for a closer look

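Non-targeting replicate 3 stood apart from the other controls in its total, at 71521173 expected counts against 31106042 to 36544665. It was the only one of 18 groups of 4 values (the totals and the 8 genes, in each genotype) with such a gap, where chance gives about 1 in 20. In each of the 8 genes the 4 controls split by experiment, 2 against 2 without overlap, so the same measure says little about a single library there. Its part in the results was not tested beyond the fits that left it out.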

How the results depend on the processing

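Alternatives gave 394 values for 31 results, and 368 of these were labelled the same. For a tested value this meant the same side of the threshold in the same direction. For a value with no test it meant a move smaller than the spread between libraries. For a number of genes called it meant only staying within a set ratio of the main number, so 7178 counted as the same as 8671. The 3 higher and 2 lower of the 8 genes between experiments were called under every alternative run, including the replicate block (guide as a block, 8764 genes called), and the count over all genes was 8092 to 9312 across settings and 7178 to 9193 with 1 library left out. The difference of knockout effects called 5 genes with no filter on low counts, and ZRSR2 KO against non-targeting called 4 with DESeq2, in place of 0. The cause was not tested. The fit of ZRSR2 KO against non-targeting ignores the experiment, so its lack of calls says little. In edgeR 89 genes had an unadjusted p under 0.05 there, and 690 with the experiment as a block, with 0 called in both. With the replicate block 24 pathway genes fell in place of 25, and no call among the 8 genes changed. The log2 value of DFNA5 with ZRSR2 guides was −0.78 to −0.12 with 1 library left out, where the fit ignores experiments that are then unbalanced. Likewise GSDMB ranged from −0.57 to 0.00, CASP4 from −0.03 to 0.15 and NLRP3 from −0.73 to 0.10. The change in the DFNA5 effect between experiments was −0.26 to 0.15, with the positive values without ZRSR2 KO replicate 1 or non-targeting replicate 4. The block with 1 library left out, tried after seeing the data, gave −0.58 to −0.39 for DFNA5. Without the experiment in the fit, ZRSR2 guide 2 against guide 1 gave −1.07 to 0.81 for DFNA5 and −1.16 to 1.43 for NLRP3. Only 2 experiments and 2 guides per genotype limit all comparisons, and NLRP3 rests on 86 to 382 counts per library.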
